A study of Mus musculus with 28 samples.

Results

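The genes described here are those that encode collagen chains, taken as every gene of the count table whose symbol reads Col, a number, a and a number. The rule found 44 of the 24062 genes, and 43 of the 16369 genes that passed the filter on low counts. The gene that did not pass was Col10a1, the network-forming collagen of growth plate cartilage, which had 0 to 18 counts in a library. Messenger RNA was measured by bulk RNA sequencing of the hippocampus of female mice, in 7 groups of 4 libraries, with 32080861 to 54019519 counts in a library. The 3xTg mice, a model of Alzheimer's disease, carry mutated human amyloid precursor protein and tau transgenes driven by a neuronal Thy1 cassette, and the wild-type mice, labelled BL6129 (here WT), carry none of these. The 3xTg mice received NAVI (navitoclax, ABT263, which blocks BCL-2 proteins that keep cells from apoptosis), DQ (dasatinib with quercetin) or 1 of 2 vehicles, VehN and VehD. The WT mice received NAVI, DQ or a vehicle labelled Veh. Age, dose and schedule are not given in the labels used here, and all groups share sex and tissue. The labels number the 4 libraries of a group without saying that each is a different animal, so p-values measure the spread between these libraries.

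Collagens are matrix proteins in which chains of repeated glycine-X-Y triplets wind into a triple helix. Fibrillar collagens build the rope-like fibrils of connective tissue, FACIT collagens (fibril-associated collagens with interrupted triple helices) sit on those fibrils, and type IV collagens form the sheet-like network of basement membranes. In the brain, collagen is sparse outside the meninges, the vessel walls and the choroid plexus, although some neurons make a few of the minor types.

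Collagen genes held 0.0317 to 0.0531% of the counts of a library. Per length, the transmembrane collagen Col25a1, a neuronal chain whose shed form is known from amyloid plaques, stood highest, at 10.3 CPM (library-scaled counts, with TMM factors) per kb of exon over the 28 libraries. Next came Col6a1 of the beaded filaments of collagen VI (4.89 CPM per kb), and Col4a2 (3.83) and Col4a1 (3.31), the main chains of vessel basement membranes. The interstitial fibril chains Col1a2 (0.959), Col1a1 (0.440) and Col3a1 (0.284) ranked lower. By summed CPM, the 4 transmembrane chains held 37.5% of the collagen total, the 6 basement membrane chains 16.1%, the 9 FACIT chains 15.5% and the 11 fibrillar chains 13.0%. The 8 beaded filament and related chains held 9.87%, the 3 network-forming chains 6%, the 2 multiplexins 1.91% and Col7a1, the anchoring fibril chain, 0.182%. Per kb of exon the order changed, with 26.6% for transmembrane, 20% for FACIT, 18.1% for basement membrane, 13.7% for beaded filament and 11.1% for fibrillar chains. Among transmembrane chains, Col25a1 had a mean of 133 CPM and Col23a1, the next, 15.8 CPM.

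**Figure D1:**
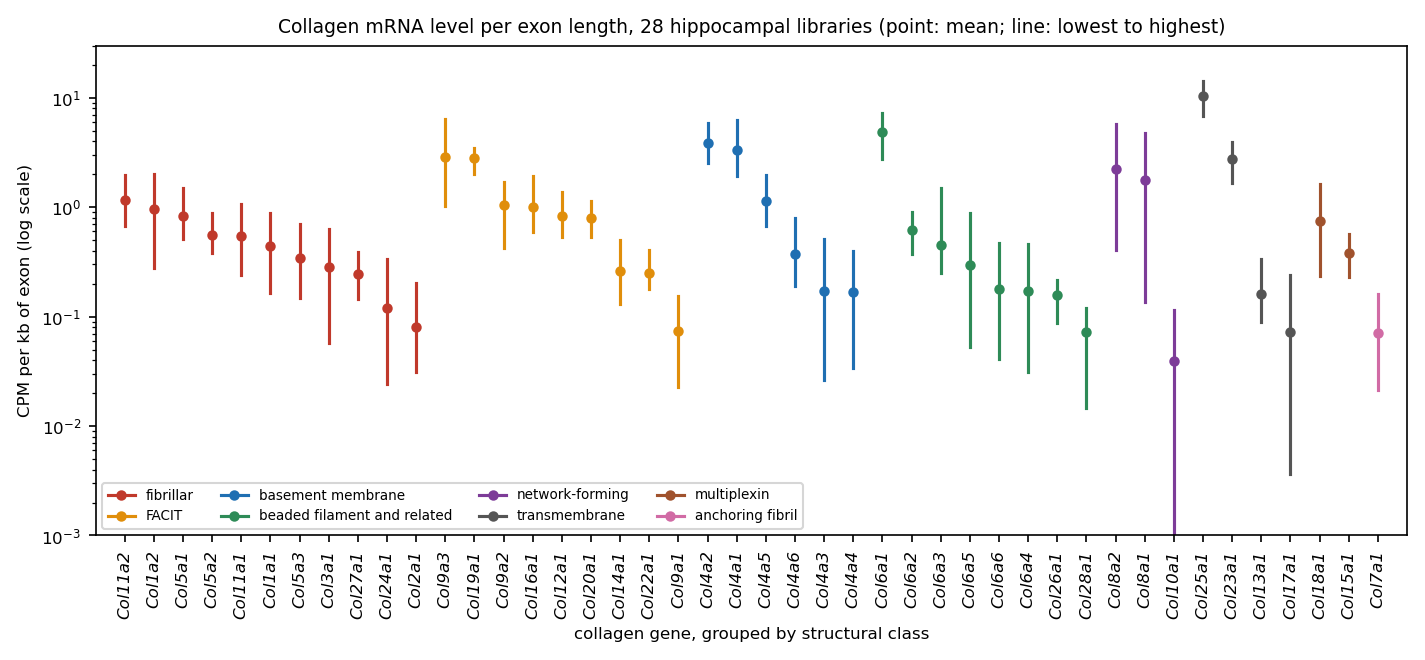
Level of each of the 44 collagen genes in CPM per kb of exon, on a log axis, grouped and coloured by structural class. Points are means over 28 libraries and lines run from the lowest to the highest library. Col25a1 stands at the top with 10.3, and the line of Col10a1, at 0 in 1 library, runs to the lower edge.

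The stretches before the start sites of a few chains are shown because these chains form a pair, varied together or passed a test below. The promoters of RefSeq (build GRCm38.p6, the mm10 assembly) matched 35 of the 44 genes, in 38 entries. Printed parts hold no annotated UTR except the short stretch shared by Col4a1 and Col4a2. Capitals mark the GC box letters GGGCGG or their complement CCGCCC, and where matches overlap, the capitals run on.

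The type IV genes lie head to head in 3 pairs. The annotated starts of Col4a2 (plus strand) and Col4a1 (minus strand) on chromosome 8 overlap by 22 bases, at chr8:11312805-11312826, so each start lies inside the other gene, printed here on the plus strand. The start of Col4a4 (minus) in the promoter table and that of Col4a3 (plus) in the RefSeq gene table lie 71 bases apart, and the stretch between them, chr1:82586850-82586920, is printed on the minus strand and holds no GC box. The gene table gives Col4a4 an outer bound at 82587034, beyond the Col4a3 start, so by those bounds the genes overlap. The starts of Col4a6 and Col4a5 on chromosome X lie 1342 bases apart.
Col4a2 and Col4a1: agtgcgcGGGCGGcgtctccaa
Col4a4 and Col4a3: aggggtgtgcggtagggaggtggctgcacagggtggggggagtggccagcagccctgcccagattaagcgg

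The network chains Col8a1 and Col8a2 (chr16:57754738-57754987, minus strand, and chr4:126286544-126286792, plus strand) are shown because both varied together with the choroid plexus markers of the libraries.
Col8a1: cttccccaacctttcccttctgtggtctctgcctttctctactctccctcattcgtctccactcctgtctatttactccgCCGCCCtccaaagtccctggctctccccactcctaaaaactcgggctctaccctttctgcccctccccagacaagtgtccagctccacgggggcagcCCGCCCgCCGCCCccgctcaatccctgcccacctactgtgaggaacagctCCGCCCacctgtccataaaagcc
Col8a2: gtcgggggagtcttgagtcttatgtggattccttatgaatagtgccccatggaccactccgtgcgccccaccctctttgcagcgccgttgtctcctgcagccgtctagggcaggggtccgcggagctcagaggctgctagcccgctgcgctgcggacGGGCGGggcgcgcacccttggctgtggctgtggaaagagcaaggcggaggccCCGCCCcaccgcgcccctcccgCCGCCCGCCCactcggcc

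The alternative collagen VI chains Col6a5 and Col6a6, neighbours on chromosome 9 (chr9:105960644-105960893 and chr9:105828161-105828335, minus strand), are shown because both were lower in 3xTg with vehicle. The starts are those of the promoter table. The gene table sets outer bounds at 105962463 for Col6a5 and 105828246 for Col6a6. By those bounds the Col6a5 stretch lies inside its gene, and the Col6a6 stretch lies partly inside. Col1a2 (chr6:4505370-4505492, plus strand) is shown as the fibril chain that, of the 3 related to fibroblast markers here, had the highest correlation with them. Of Col6a6 and Col1a2, only the part of the window before the start that overlaps no annotated UTR is given.
Col6a5: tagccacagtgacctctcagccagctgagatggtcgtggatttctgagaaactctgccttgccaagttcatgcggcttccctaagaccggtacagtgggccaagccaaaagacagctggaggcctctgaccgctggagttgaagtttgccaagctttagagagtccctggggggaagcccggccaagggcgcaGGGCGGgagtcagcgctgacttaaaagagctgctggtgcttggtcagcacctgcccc
Col6a6: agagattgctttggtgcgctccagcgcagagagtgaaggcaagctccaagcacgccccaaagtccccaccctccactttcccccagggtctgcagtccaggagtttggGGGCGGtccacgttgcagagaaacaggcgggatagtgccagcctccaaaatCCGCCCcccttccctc
Col1a2: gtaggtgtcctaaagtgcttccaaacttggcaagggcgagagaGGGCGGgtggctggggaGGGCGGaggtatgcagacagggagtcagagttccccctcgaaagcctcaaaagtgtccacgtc

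Over the 250 bases before the start, on either strand, 22 of the 38 collagen entries (57.9%) held the GC box, against 32.7% of 32851 promoters of all genes. CCAAT was found in 34.2% of collagen entries and 33.8% of all, and TATAAA in 13.2% and 12.4%. These are matches of letters and say nothing of a factor.

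The libraries differed in the level of choroid plexus markers, and 5 collagen genes separated with it. The summed level of 12 choroid plexus markers was 2404 to 6021 CPM in 14 libraries and 80.9 to 757.7 CPM in the other 14. High libraries numbered 4 of 4 in 3xTg VehN, 2 each in WT Veh, WT DQ, 3xTg VehD and 3xTg NAVI, and 1 each in WT NAVI and 3xTg DQ. For 5 collagen genes the high libraries all lay above the low ones, as they did for 0.678% of the genes tested. No collagen gene lay the other way (0% of the genes tested).

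Col8a1, known from the membrane under the corneal endothelium, ran from 1.07 to 4.55 CPM in the 14 low libraries (median 2.40) and from 14.8 to 37.6 in the 14 high ones (23.1), a ratio of medians of 9.61. Col8a2, its partner chain, ran from 1.82 to 7.85 CPM (3.27) and from 8.75 to 26 (15). Both thus had a gap between low and high libraries in whichever group the library stood. Col4a3 of the collagen IV network best known from the kidney glomerulus ran from 0.262 to 0.924 CPM and from 1.66 to 5.08. Col9a3, a FACIT chain of cartilage fibrils, ran from 3.93 to 8.45 and from 9.52 to 24.4 CPM, and Col17a1, a transmembrane chain of hemidesmosomes, from 0.0218 to 0.237 and from 0.302 to 1.45. With as few as 1 count in a library, Col17a1 lay near the floor in the low libraries. It is likely to have passed the filter on low counts only through the high libraries, so its separation is no support. Col4a4, the head-to-head partner of Col4a3, overlapped between the sets at 0.357 to 2.13 and 1.49 to 4.18 CPM. Over the 43 tested collagen genes the median ratio of high to low libraries was 1.2, against 0.997 over all genes tested. Whether choroid plexus cells or their stroma made these transcripts was not tested. Of the exons of Col9a3, 6.07% of the length overlaps Tcfl5 on the opposite strand and, for Col4a3, 5.65% overlaps C430014B12Rik, and no source used here gives the strand setting of the counting, so reads of those parts are uncertain.

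**Figure D2:**
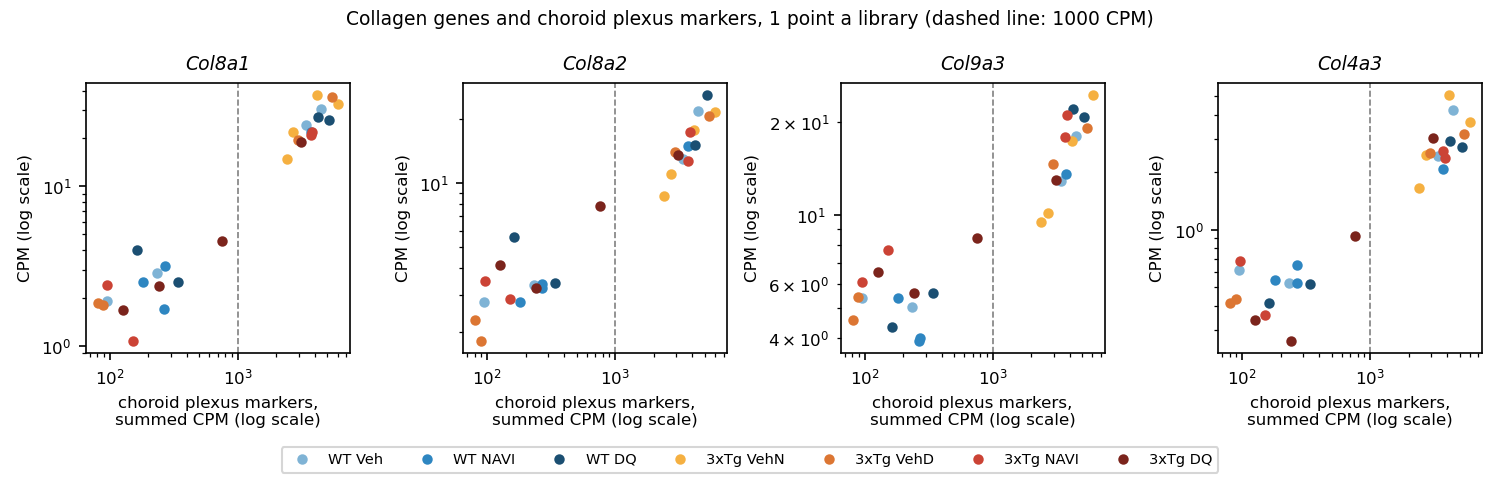
CPM of Col8a1, Col8a2, Col9a3 and Col4a3 against the summed CPM of 12 choroid plexus markers, both on log axes, 1 point a library coloured by group. The dashed line at 1000 CPM parts the 14 low from the 14 high libraries, and no gene shown has a low library above a high one.

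The interstitial fibril chains ran with markers of fibroblasts, the matrix-producing cells of meninges and vessel walls. The score of 20 fibroblast markers, none of them a collagen, is their mean log2 CPM relative to all libraries. Over the 28 libraries it had a Pearson r of 0.975 with Col1a2 (Spearman's rho 0.978, and r of 0.983 once the 2 farthest libraries are dropped and 0.974 within groups), of 0.918 with Col3a1 (rho 0.924, then 0.926 and 0.902), of 0.835 with Col1a1 (rho 0.844, then 0.879 and 0.849) and of 0.856 with Col4a6 (rho 0.889, then 0.843 and 0.881). The permutation p of each of these was 1e-05, the smallest that 100000 permutations can give, and 1.9e-05 adjusted over 13 relations. Here and below, permutations shuffled the libraries of a relation without regard to group, so differences between groups enter p. No p was computed for the values within groups. In such bulk samples fewer cells of a type and less RNA per cell cannot be told apart, and the points share tissue and library.

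Chains of 1 pair also ran together. Pearson's r was 0.943 between Col4a1 and Col4a2 (rho 0.946, then r of 0.937 and 0.944 in the same order) and 0.887 between Col4a5 and Col4a6 (rho 0.870, then 0.846 and 0.834), and 0.902 between Col1a1 and Col1a2 (rho 0.882, then 0.873 and 0.904), each with an adjusted permutation p of 1.9e-05. The 3 pairs named here covary over and within groups. They were not compared within the sets of high and low choroid plexus libraries. The ratio of high to low medians was 1.68 for Col4a5, 1.74 for Col4a6, 1.66 for Col1a1 and 2.32 for Col1a2. It was 1.16 for Col4a1 and 1.03 for Col4a2. Because the choroid plexus markers split the libraries, Col4a3 and Col4a4 were compared within each set of 14. Their r was 0.872 in the high libraries (rho 0.877, r 0.777 without the 2 farthest, adjusted permutation p = 3.2e-05 for r) and 0.246 in the low ones (rho 0.0637, -0.278 without the 2 farthest, permutation p = 0.397). In the low libraries Col4a3 had only 9 to 40 counts and Col4a4 15 to 92, so counting error weighs more there. Col8a1 and Col8a2 had an r of 0.761 in the high libraries (rho 0.767, then 0.763, adjusted permutation p = 0.00221) and of 0.661 in the low ones (adjusted permutation p = 0.0116), where rho was 0.420 (adjusted permutation p = 0.150) and r without the 2 farthest libraries 0.488. The score of 10 endothelial markers had an r of 0.628 with Col4a1 (rho 0.529, then 0.490 and 0.445 within groups, adjusted permutation p = 4.91e-04 for r) and of 0.475 with Col4a2 (rho 0.426, then 0.361 and 0.293, adjusted permutation p = 0.0116 for r).

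**Figure D3:**
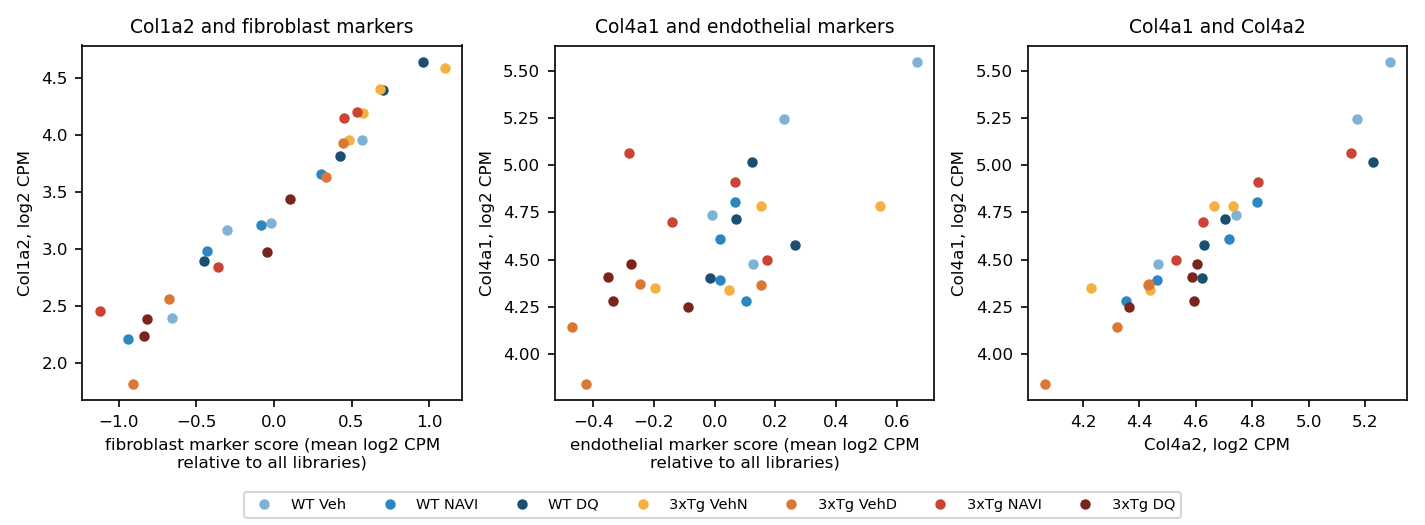
Log2 CPM of Col1a2 against the fibroblast marker score, of Col4a1 against the endothelial marker score and of Col4a1 against Col4a2, 1 point a library coloured by group. Points lie close to a line in the first and the last panel (r 0.975 and 0.943) and scatter more widely in the middle one (r 0.628).

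The first comparison asked how collagen expression differed between 3xTg and WT with vehicle, with the mean of VehN and VehD set against WT Veh. The 2 main basement membrane chains, the collagen VI chains Col6a5 and Col6a6 and the FACIT chain Col22a1 were lower in 3xTg, and the FACIT chain Col12a1 was higher. These are 6 of 43 collagen genes tested, beside 13.1% of all genes tested, a share close to it. The 1 higher collagen gene stands beside 5.68% of all genes and the 5 lower ones beside 7.40%. The median log2 difference was 0.10 over the collagen genes and 0.0063 over all genes tested. Calls are edgeR quasi-likelihood tests with Benjamini-Hochberg adjusted p under 0.05 over all genes tested.

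Among basement membrane chains, Col4a1 was at 22.2, 26.6, 37.9 and 46.8 CPM in the WT Veh libraries, at 20.2, 20.4, 27.5 and 27.5 in 3xTg VehN and at 14.3, 17.6, 20.6 and 20.7 in 3xTg VehD. All VehD libraries lay below all WT Veh libraries, while VehN overlapped with them. The log2 difference was -0.67 (SE 0.158, edgeR adjusted p = 0.0076). Col4a2 was at 22.0, 26.7, 36.0 and 39.0 CPM in WT Veh, at 18.7, 21.6, 25.3 and 26.5 in VehN and at 16.7, 20.0, 21.5 and 21.6 in VehD. Its genotype difference was -0.53 on the log2 scale (SE 0.144, edgeR adjusted p = 0.0186). The Col4a1 call was lost without WT Veh replicate 1, the library highest in both genes (log2 -0.47, edgeR adjusted p = 0.0756), and the Col4a2 call without WT Veh replicate 1 (-0.40, 0.116) or replicate 4 (-0.45, 0.101). WT Veh replicate 1 also had the highest endothelial score of the 28 libraries (0.667). With VehN alone as the 3xTg vehicle, Col4a1 was at -0.48 (edgeR adjusted p = 0.0864) and Col4a2 at -0.43 (0.0946). The summed level of endothelial markers was 248 to 383 CPM in WT Veh, 221 to 374 in VehN and 187 to 276 in VehD. Of the 10 endothelial markers tested, 9 were negative (median log2 -0.28) and 3 passed as lower, beside 7.40% of all genes tested. Their part in the Col4a1 and Col4a2 differences was not tested. No other of the 6 type IV chains passed. Col4a6, a chain of smooth muscle and meningeal basement membranes, was at 0.72 (edgeR adjusted p = 0.0715), Col4a5 at 0.40 (0.243), Col4a4 at 0.30 (0.757) and Col4a3 at 0.25 (0.835).

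Among the 8 beaded filament and related chains, Col6a5 was at 2.38, 2.66, 5.57 and 6.45 CPM in WT Veh, at 0.769, 1.07, 1.28 and 2.37 in VehN and at 0.498, 1.12, 1.42 and 2.84 in VehD. Only 1 of the 8 3xTg libraries lay above the lowest WT library. The log2 difference was -1.58 (SE 0.418, edgeR adjusted p = 0.0163), and the call was lost without WT Veh replicate 1 (-1.31, 0.0864), when only VehD stood for 3xTg (-1.54, 0.0897) and, as an alternative added after seeing the data, when the 8 libraries rich in thalamus markers were dropped (-1.07, 0.149). Col6a6, which like Col6a5 can take the place of the Col6a3 chain, was at 2.09, 2.32, 2.36 and 4.17 CPM in WT Veh, at 1.15, 1.22, 1.49 and 2.59 in VehN and at 0.410, 0.501, 0.797 and 1.22 in VehD. Its log2 difference was -1.33 (SE 0.391, edgeR adjusted p = 0.0279), lost without VehN replicate 3 (-1.27, 0.0514), VehD replicate 3 (-1.23, 0.0552), WT Veh replicate 2 (-1.06, 0.0784) or WT Veh replicate 4 (-1.40, 0.0572) and with VehN alone (-0.77, 0.259). VehD lay below WT Veh in every library, and VehN did not. The common collagen VI chain Col6a1 was at 16.2, 25.7, 26.3 and 31.6 CPM in WT Veh, 15.6 to 25.1 in VehN and 12 to 25.9 in VehD (log2 -0.43, SE 0.224, edgeR adjusted p = 0.187).

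Among the 9 FACIT chains, Col12a1, which coats collagen I fibrils, was at 8.50, 9.35, 10.7 and 13.3 CPM in WT Veh, at 15.3, 17.4, 17.5 and 20.8 in VehN and at 11.8, 12.3, 14.7 and 14.8 in VehD. VehN lay above all WT Veh libraries, and VehD overlapped with the highest of them. The log2 difference was 0.56 (SE 0.141, edgeR adjusted p = 0.0127), lost without WT Veh replicate 1 (0.47, 0.0651) and with VehD alone (0.36, 0.198). Col22a1, known from tissue junctions such as that of muscle and tendon, was at 2.20, 2.54, 2.75 and 3.13 CPM in WT Veh, 1.63 to 2.25 in VehN and 1.80 to 2.30 in VehD (log2 -0.44, SE 0.138, edgeR adjusted p = 0.0382). This was the weakest of the 6 calls. It was lost when WT Veh replicates 1, 2 or 3, VehN replicates 2 or 4, or VehD replicates 1, 2 or 3 were left out in turn, with log2 differences of -0.46 to -0.35 and an edgeR adjusted p of 0.0533 to 0.101. It was also lost with VehN alone (0.0782) or VehD alone (0.123), without the low count filter (0.053) and with only the compared libraries (0.0674). Without WT Veh replicate 1, Col6a6 was the 1 collagen gene still called.

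None of the 11 fibrillar chains passed. Those with the smallest p were negative, Col2a1 at -0.79 (SE 0.287, edgeR adjusted p = 0.0655), Col11a1 at -0.69 (SE 0.274, 0.0902) and Col24a1 at -0.99 (SE 0.496, 0.168), while the interstitial chains that follow were positive. Col1a2 was at 5.22, 8.95, 9.32 and 15.5 CPM in WT Veh, at 15.5, 18.3, 21.1 and 24.0 in VehN and at 3.48, 5.86, 12.3 and 15.2 in VehD. VehN thus began at the level of the highest WT Veh library, and VehD overlapped with WT Veh. The log2 difference was 0.47 (SE 0.394, edgeR adjusted p = 0.419), and -0.08 with VehD alone. Col3a1, the fibril chain of stretchable tissue, was at 1.42, 1.62, 2.45 and 4.5 CPM in WT Veh, 3.90 to 5.31 in VehN and 0.819 to 2.93 in VehD (log2 0.22, SE 0.485, edgeR adjusted p = 0.778). Col1a1 was at 1.53, 2.49, 3.32 and 3.66 CPM in WT Veh, 2.18 to 4.59 in VehN and 1.07 to 3.12 in VehD (log2 0.03, SE 0.331, edgeR adjusted p = 0.968). The fibroblast markers moved along, with a summed 788 to 1670 CPM in WT Veh, 1270 to 2030 in VehN and 663 to 1430 in VehD. The neuronal Col25a1 was at 95.1, 133, 140 and 157 CPM in WT Veh, 122 to 154 in VehN and 120 to 140 in VehD, which overlap (log2 -0.02, SE 0.125, edgeR adjusted p = 0.945).

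With the choroid plexus and fibroblast scores as covariates, an alternative chosen after seeing the data, all 6 calls held. Col4a1 was at -0.69 (edgeR adjusted p = 0.0116), Col4a2 at -0.53 (0.0288), Col12a1 at 0.49 (0.0108), Col6a5 at -1.52 (0.0253), Col6a6 at -1.75 (1.23e-04) and Col22a1 at -0.48 (0.031). The endothelial score, which ran with Col4a1 and Col4a2, was not among these covariates. Without the 14 high choroid plexus libraries, which leaves no VehN library and 2 against 2, no collagen gene passed, and Col4a1 was at -1.20 (edgeR adjusted p = 0.0561), Col6a6 at -2.28 (0.164), Col6a5 at -1.05 (0.382) and Col12a1 at 0.43 (0.248).

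**Figure D4:**
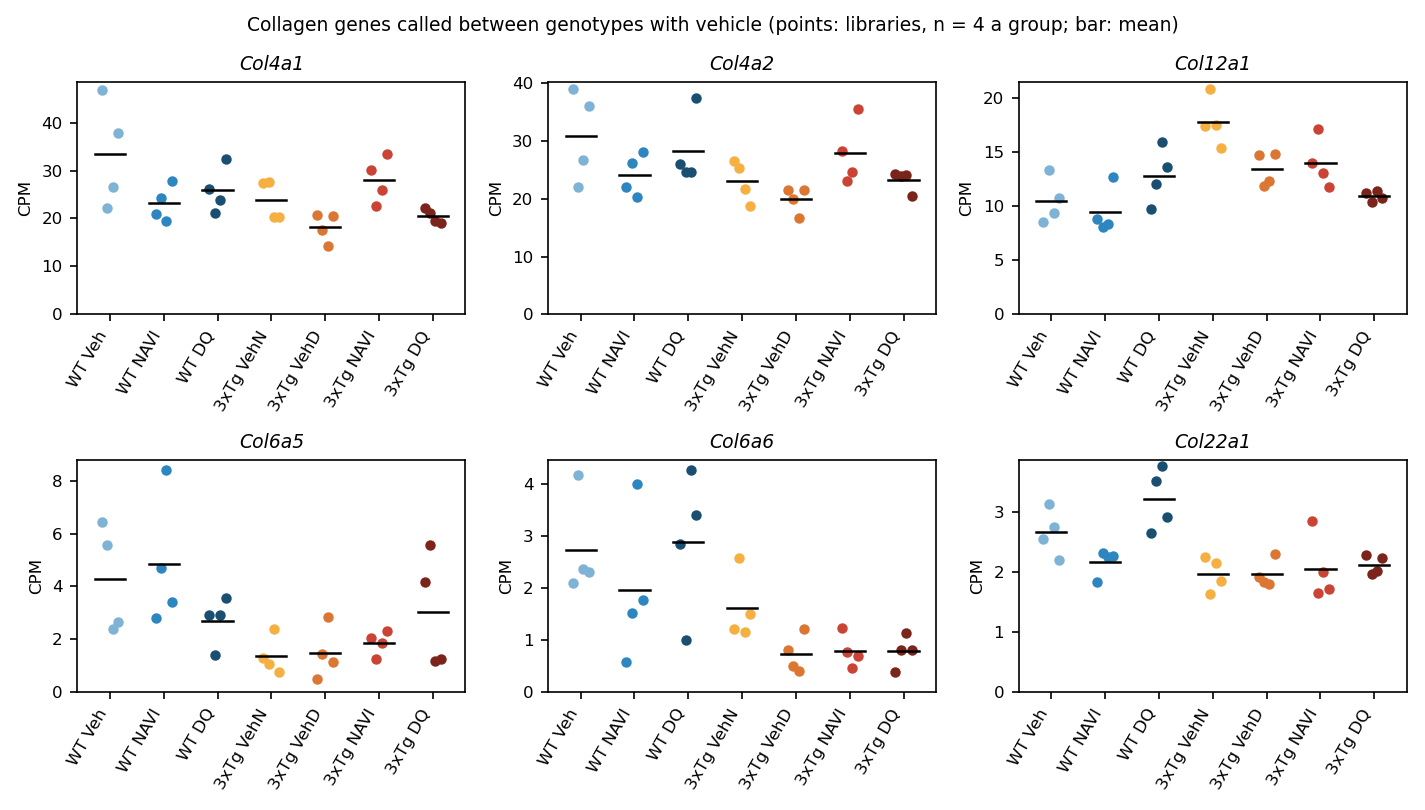
CPM of the 6 collagen genes called between genotypes with vehicle in all 28 libraries, with the 4 points and the mean of each group. Col6a6 stays at or below 1.23 CPM in all VehD, NAVI and DQ libraries of 3xTg, and Col4a1 is highest in 2 WT Veh libraries.

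The same genotype difference was read within each drug, in libraries not shared with the vehicle comparison. With NAVI, 4 of 43 collagen genes passed, beside 5.98% of all genes tested. All 4 were higher in 3xTg (3.29% of all genes were higher) and none lower (2.69%). Of the 43, 35 were positive, with a median log2 difference of 0.47 against 0.0018 over all genes. Also positive were 12 of 12 choroid plexus markers (median 0.52), 14 of 14 thalamus markers (0.55), 11 of 12 mural markers (0.39) and 16 of 20 fibroblast markers (0.27). So were 9 of 10 microglia (0.42), 10 of 12 oligodendrocyte (0.435), 8 of 10 astrocyte (0.21) and 8 of 14 hippocampal neuron markers (0.058). Of 10 endothelial markers, 7 were negative (-0.11). The part of these markers in the collagen shift was not tested. Col11a2, a chain of minor cartilage fibrils, was at 4.64, 6.16, 6.44 and 7 CPM in WT NAVI and at 9.58, 11.4, 13.2 and 13.6 in 3xTg NAVI, without overlap (log2 0.98, SE 0.232, edgeR adjusted p = 0.0128). The FACIT chain Col16a1 was at 3.99, 5.13, 5.66 and 6.42 against 7.30, 8.84, 9.61 and 12.9 CPM, also without overlap (0.87, SE 0.218, edgeR adjusted p = 0.0189). The fibrillar chain Col27a1 was at 1.89, 2.36, 2.75 and 3.19 against 3.25, 3.92, 4.47 and 5.03 CPM (0.71, SE 0.196, edgeR adjusted p = 0.0322). Its groups were likewise apart, whereas those of Col12a1 overlapped, at 8.06, 8.31, 8.75 and 12.7 against 11.7, 13.0, 14.0 and 17.1 CPM (0.57, SE 0.16, edgeR adjusted p = 0.0355). No collagen gene passed without 3xTg NAVI replicate 3 (edgeR adjusted p of these 4 from 0.0515 to 0.105) or without WT NAVI replicate 3 (0.0606 to 0.126). Col12a1 was also lost without 3xTg NAVI replicate 1 (0.0651) or 2 (0.0672) and WT NAVI replicate 1 (0.0731) or 2 (0.0897), and Col27a1 without 3xTg NAVI replicate 1 (0.0719) or 4 (0.114) and WT NAVI replicate 4 (0.0883). The 11 cartilage and bone markers summed to 42.0 to 47.8 CPM in WT NAVI and 46.4 to 54.5 in 3xTg NAVI, with at most 2 of them at 0 in a library, and their part was not tested.

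With DQ, 2 of 43 collagen genes passed, beside 3.05% of all genes tested. Both were lower in 3xTg (1.37% of all genes were lower) and none was higher (1.68%). Of the 43, 34 were negative, with a median log2 difference of -0.35 against -0.0027 over all genes. Also negative were 12 of 12 choroid plexus markers (median -0.86), 14 of 14 thalamus markers (-0.99), 11 of 12 mural markers (-0.49), 19 of 20 fibroblast markers (-1.04) and 10 of 10 endothelial markers (-0.42). Positive were 10 of 10 microglia (0.26), 8 of 10 astrocyte (0.17), 9 of 12 oligodendrocyte (0.096) and 7 of 14 hippocampal neuron markers (-0.046). The part of these markers in the collagen shift was not tested. Col6a6 was at 1.01, 2.84, 3.41 and 4.27 CPM in WT DQ and at 0.377, 0.797, 0.808 and 1.13 in 3xTg DQ (log2 -1.91, SE 0.49, edgeR adjusted p = 0.0308). Col22a1 was at 2.65, 2.91, 3.51 and 3.75 against 1.96, 2.01, 2.22 and 2.28 CPM, without overlap (-0.59, SE 0.161, edgeR adjusted p = 0.0419). Both calls depended on single libraries. Col6a6 was lost without 3xTg DQ replicates 1, 2 or 4 or WT DQ replicates 1, 3 or 4 (edgeR adjusted p of 0.051 to 0.115), and Col22a1 without any 3xTg DQ replicate or WT DQ replicates 2, 3 or 4 (0.0576 to 0.169). With the choroid plexus and fibroblast scores as covariates Col6a6 was at -0.93 (edgeR adjusted p = 0.171) and Col22a1 at -0.52 (0.149), and Col6a6 was at -1.79 (0.16) without the libraries rich in thalamus markers. The fibril chains Col3a1 (-1.64, SE 0.58, edgeR adjusted p = 0.136), Col1a2 (-1.25, SE 0.455, 0.148) and Col1a1 (-1.11, SE 0.387, 0.131) did not pass. Fibroblast markers summed to 895 to 2470 CPM in WT DQ and 691 to 1240 in 3xTg DQ, and endothelial markers to 261 to 298 and 201 to 245.

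**Figure D5:**
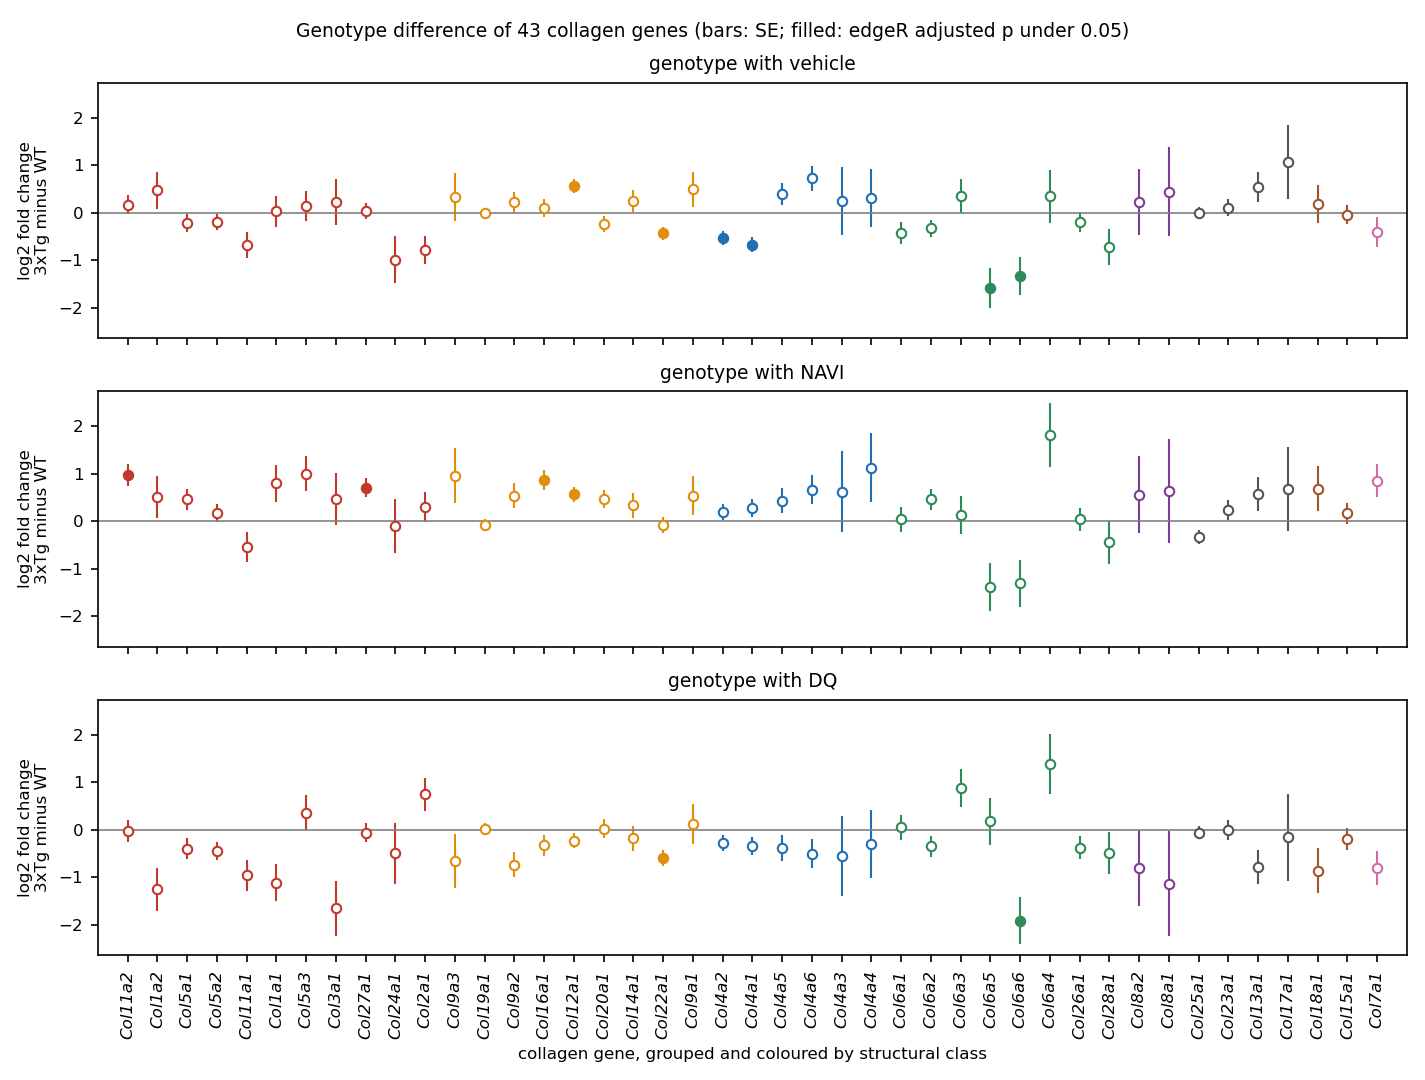
Log2 difference between 3xTg and WT for 43 collagen genes with vehicle, with NAVI and with DQ, coloured by structural class, with bars of 1 SE. Filled points passed the edgeR threshold, which 6, 4 and 2 genes did, and most points lie above 0 with NAVI (35 of 43) and below 0 with DQ (34 of 43).

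Side by side, Col6a6 was at -1.33 with vehicle, -1.31 with NAVI (SE 0.488, edgeR adjusted p = 0.0964) and -1.91 with DQ. Col6a5 was at -1.58, -1.38 (SE 0.504, edgeR adjusted p = 0.0915) and 0.18 (SE 0.497, 0.867). Over all treatments Col6a5 ran from 1.41 to 8.41 CPM in the 12 WT libraries (median 3.17) and from 0.498 to 5.57 in the 16 3xTg libraries (1.35), and Col6a6 from 0.567 to 4.27 (2.34) and from 0.377 to 2.59 (0.803). Both genes therefore overlap between genotypes once all libraries are counted. Col12a1 was at 0.56, 0.57 and -0.23 (SE 0.16, edgeR adjusted p = 0.466), Col4a1 at -0.67, 0.27 (SE 0.186, 0.331) and -0.34 (SE 0.187, 0.349), and Col22a1 at -0.44, -0.08 (SE 0.163, 0.764) and -0.59. Whether the vehicle and drug values listed here differ was not tested as such. The test of the drug effect by genotype sets each drug against its own vehicle, VehN for NAVI and VehD for DQ in 3xTg, where the values above use the mean of both. For NAVI no collagen gene passed it, beside 8.13% of all genes tested, with edgeR adjusted p of 0.0571 for the FACIT chain Col20a1 (0.81, SE 0.272), 0.0627 for Col4a1 (0.76, SE 0.263) and 0.0779 for Col4a2 (0.63, SE 0.238), and 10 of 43 (23.3%) at an unadjusted p under 0.05 against 32.7% of all genes. DESeq2 called these 3 genes. The count with edgeR was 5 without 3xTg NAVI replicate 2 (the same 3, Col27a1 and Col2a1), 7 without VehN replicate 1, 3 without WT Veh replicate 2 (the same 3) and 1 without WT Veh replicate 3 (Col20a1). For DQ none passed (0% of all genes), with Col2a1 at 1.56 (SE 0.485, edgeR adjusted p = 1), 4 of 43 (9.3%) at an unadjusted p under 0.05 against 2.85% of all genes and 0 called by DESeq2. The WT vehicle carries 1 label for both drugs, so a difference between vehicles cannot be told apart from a difference between genotypes there.

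The effect of each drug within a genotype was read against its vehicle, matched by the last letter of the label. With edgeR and these vehicles no collagen gene passed in any of the 4. NAVI in 3xTg against VehN called 0 of 43, beside 0% of all genes, with 9 of 43 (20.9%) at an unadjusted p under 0.05 against 29.1% of all genes. The closest was Col2a1, the main fibril chain of cartilage, at 0.287, 0.337, 0.597 and 0.703 CPM in VehN and 0.625, 1.10, 1.31 and 1.87 in NAVI, which overlap in 1 library (log2 1.34, SE 0.335, edgeR adjusted p = 0.0595). Col20a1 was at 2.76, 2.93, 3.81 and 4.27 against 3.55, 5.39, 5.60 and 5.82 CPM (0.56, SE 0.192, edgeR adjusted p = 0.0777). With the mean of both vehicles as the reference Col2a1 (1.37, edgeR adjusted p = 0.0365) and Col7a1 were called. DESeq2 called Col20a1, and with edgeR the count was 6 without VehN replicate 1 (Col2a1 at 1.48, adjusted p = 0.0144), 2 without NAVI replicate 2 (1.57, 0.0174) and 1 without NAVI replicate 1 (1.39, 0.0408). Col25a1 was at -0.14 (SE 0.145, edgeR adjusted p = 0.542) and Col4a1 at 0.23 (SE 0.186, 0.415).

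NAVI in WT called 0 of 43 (0% of all genes), with 2 of 43 (4.65%) at an unadjusted p under 0.05 against 7.74% of all genes and 0 called by DESeq2. These were the vessel chains Col4a1, at 19.4, 20.9, 24.4 and 27.9 CPM with NAVI against 22.2 to 46.8 in WT Veh (log2 -0.53, SE 0.186, edgeR adjusted p = 0.614), and Col4a2, at 20.4, 22.0, 26.2 and 28.1 against 22.0 to 39.0 (-0.36, SE 0.168, 0.614). Both overlapped with WT Veh. DQ in 3xTg against VehD called 0 of 43 (0% of all genes), with 2 at an unadjusted p under 0.05 (1.83% of all genes) and 0 called by DESeq2. They were Col2a1 at 0.71 (SE 0.341) and Col6a5 at 1.05 (SE 0.51), both at an edgeR adjusted p of 1. In 3xTg DQ, 2 libraries of Col6a5 lay above the VehD range, at 4.17 and 5.57 CPM, and 2 within it. DQ in WT called 0 of 43, beside 0.00611% of all genes, with 1 (2.33%) at an unadjusted p under 0.05 against 3.38% of all genes and 0 called by DESeq2. That was Col2a1, at 0.343, 0.440, 0.489 and 0.525 CPM against 0.636 to 1.05 in WT Veh, without overlap (log2 -0.85, SE 0.345, edgeR adjusted p = 1), and the next was Col4a1 (-0.37, SE 0.186, adjusted p = 1).

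The 2 vehicles of 3xTg were compared as well, since both enter the genotype difference. None of 43 collagen genes passed (0% of all genes), with 8 of 43 (18.6%) at an unadjusted p under 0.05 against 4.93% of all genes and 0 called by DESeq2. Of the 43, 35 of 43 were lower with VehD, at a median log2 difference of -0.27 against 0.0064 over all genes. Col4a6 was at 3.40, 4.71, 5.67 and 6.33 CPM in VehN and 1.76, 1.98, 3.76 and 3.81 in VehD, which overlap (log2 -0.83, SE 0.297, edgeR adjusted p = 0.884). Col3a1 was at 3.90, 5.05, 5.20 and 5.31 against 0.819, 0.893, 2.37 and 2.93 CPM, without overlap (-1.47, SE 0.56, edgeR adjusted p = 0.903). The fibroblast markers stood at 1270 to 2030 CPM in VehN and 663 to 1430 in VehD, and choroid plexus markers were high in 4 and 2 of 4 libraries. Also negative were 12 of 12 mural (median log2 -0.63), 10 of 10 endothelial (-0.42), 13 of 14 thalamus (-0.46) and 7 of 12 oligodendrocyte markers (-0.060). Positive were 10 of 10 microglia (0.11), 7 of 10 astrocyte (0.028) and 9 of 14 hippocampal neuron markers (0.10). The part of these markers in the collagen shift was not tested.

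Genes that make, bind or degrade collagen were read from 5 lists of partners. With vehicle, 6 of the 81 genes tested were higher in 3xTg and 2 lower, beside 5.68% and 7.40% of all genes. Of 31 processing enzymes and chaperones 26 were tested with vehicle, and 1 rose in 3xTg. It was Adamts2, which removes the amino-terminal propeptide of procollagen (log2 0.39, SE 0.124, edgeR adjusted p = 0.0378), while the crosslinking oxidase Lox was at 1.07 (SE 0.373, 0.0562) and the lysyl hydroxylase Plod2 at 0.28 (SE 0.107, 0.0815). Of 11 receptors 9 were tested, of which 2 rose and 1 fell. Lair1, an inhibitory collagen receptor of immune cells, rose by 0.60 (SE 0.112, edgeR adjusted p = 0.00133) and the integrin chain Itgb1 by 0.26 (SE 0.0742, 0.0252), and the fibrillar collagen integrin Itga11 fell by 0.57 (SE 0.174, 0.0333). Lair1 also passed with NAVI (0.43, SE 0.126, edgeR adjusted p = 0.0405) and with DQ (0.65, SE 0.127, 0.00391). Microglia markers were positive too, 9 of 10 with vehicle (median 0.19), 9 of 10 with NAVI (0.42) and 10 of 10 with DQ (0.26). Their part in the Lair1 difference was not tested. Of 13 collagen-degrading enzymes and inhibitors 11 were tested, 3 were higher and none lower. They were the metalloproteinase inhibitors Timp1 (1.71, SE 0.395, edgeR adjusted p = 0.0072) and Timp3 (0.44, SE 0.131, 0.0286) and the metalloproteinase Mmp3 (2.18, SE 0.729, 0.0482). Timp1 and Mmp3 passed with NAVI too, at 2.23 (SE 0.425, edgeR adjusted p = 0.00232) and 2.97 (SE 0.765, 0.0214).

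Of 16 non-collagen basement membrane genes none rose and 1 fell, Pxdn, whose product crosslinks collagen IV (log2 -0.31, SE 0.0859, edgeR adjusted p = 0.0215). Agrn was at -0.24 (SE 0.0966, 0.0956) and Lama3 at -0.36 (SE 0.155, 0.11). Of 19 matrix genes that accompany fibrils none passed, with the periostin gene Postn at 0.65 (SE 0.237, edgeR adjusted p = 0.0653), Aspn at 0.76 (SE 0.271, 0.0601) and Lum at 0.51 (SE 0.232, 0.13). With NAVI, 8 of the 81 tested were higher in 3xTg, beside 3.29% of all genes, Loxl3, Tll2, Lair1, Timp1, Mmp3, Lamc1, Eln and Tnxb, and none was lower (2.69%). With DQ, Adamts3 (log2 -0.44, SE 0.116, edgeR adjusted p = 0.0369) and the laminin chain Lamc3 (-0.90, SE 0.249, 0.0463) were lower and Lair1 was higher, 2 and 1 of 81 beside 1.37% and 1.68% of all genes.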

How the data were processed

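Stranded mRNA libraries of female hippocampus were read in pairs, per the labels' protocols. STAR, Subread, featureCounts and mm10 stand in the submitters' processing notes. The annotation and strand setting behind the counts were not given in the sources used. The authors deposited raw counts per gene symbol, 1 column per library and not normalized. The 28 columns were matched to libraries by name, and no 2 libraries of the same group agreed within sampling noise.

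Counts were fitted with edgeR 4.0.16 (R 4.3.3) with TMM factors, the filterByExpr filter (16369 of 24062 genes kept), a model of group means over the 28 libraries, 10 contrasts and two-sided quasi-likelihood tests adjusted by Benjamini-Hochberg over all genes tested, called under 0.05. The script was checked on simulated counts. Standard errors derive from the F statistic. CPM use the TMM factors, log2 CPM a prior count of 2, and exon lengths and overlaps come from GENCODE vM21 on the mm10 build. A library has high choroid plexus markers above 1000 CPM and high thalamus markers above a score of 0.5. Alternatives were RLE factors, no filter, DESeq2 1.42.0, the replicate number as a block, only the compared libraries, other vehicle references and leaving out each replicate. Totals ran from 32080861 to 54019519 counts, and low genes such as Col17a1 and Col10a1 carry the largest counting error.

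The members, classes, partner and marker lists and the tests were chosen with earlier results of these data known. Col1a1, Col1a2, Col3a1, Col4a1, Col4a2, Col6a1 and Col25a1 are always given, with up to 6 called collagen genes a comparison by smallest p (2 where none passed) and the 3 of each partner list with the smallest p. Other collagen genes were named after their values were seen. Not every allele of the 3xTg line is reported here.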

Additional observations from a re-analysis of the deposited data

Results flagged for a closer look

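Of 119 groups of 4 libraries of the named collagen genes, 9 held a library far from the other 3 by Dixon's 95% criterion, and chance marks about 1 group in 20. In 3xTg DQ, Col3a1 was at 2.38 CPM in replicate 3 against 0.762 to 0.953 in the others, Col4a2 at 20.5 in replicate 4 against 24.0 to 24.3, and Col6a1 at 30 in replicate 1 against 17.1 to 18.8. In WT DQ, Col4a2 was at 37.5 CPM in replicate 4 against 24.6 to 26.0. Col25a1 was at 154 CPM in 3xTg VehN replicate 3 against 122 to 126, and at 88.8 in 3xTg NAVI replicate 3 against 127 to 135. In WT NAVI, Col12a1 was at 12.7 CPM in replicate 4 against 8.06 to 8.75, and Col22a1 at 1.83 in replicate 1 against 2.24 to 2.31. In WT Veh, Col6a6 was at 4.18 CPM in replicate 2 against 2.09 to 2.36.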

How the results depend on the processing

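Of 472 values of a named gene under an alternative, 365 kept direction and side of the threshold, 75 lost the call, 8 gained it and 24 changed sign. The counts of called collagen genes moved as follows. Genotype with vehicle: 3 with VehN alone or VehD alone, 0 without the high choroid plexus libraries, and 1 to 7 when a replicate was left out (1 without WT Veh replicate 1). Genotype with NAVI: 7 with the choroid plexus and fibroblast scores as covariates, 0 without the high choroid plexus libraries, and 0 to 4 when a replicate was left out. Genotype with DQ: 1 without the low count filter, with the block, with only the compared libraries, without the high thalamus libraries or with the covariates, 0 without the high choroid plexus libraries, and 0 to 2 when a replicate was left out. NAVI in 3xTg: 2 with the block or with the mean of both vehicles, 1 with DESeq2, and 0 to 6 when a replicate was left out. NAVI effect by genotype: 3 with the block or DESeq2, and 0 to 7 when a replicate was left out. No other count moved by over 1.5 times.

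Signs changed only in genes that did not pass with vehicle. Col25a1 was at 0.00498 with VehN alone, 0.0563 without the high thalamus and 0.199 without the high choroid plexus libraries, 0.0169 with the covariates and -0.143 to 0.0848 when a replicate was left out. Col1a1 was at -0.41 with VehD alone, then -0.38, -1.02 and -0.30, and -0.18 to 0.20. Col1a2 was at -0.0765 with VehD alone and -0.60 without the high choroid plexus libraries, Col3a1 at -0.51 and -1.17 and at -0.18 with the covariates, and Col6a1 at 0.14 without the high choroid plexus libraries. The cause was not tested.

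The replicate number as a block left 6 collagen genes called with vehicle and 4 with NAVI. No clear pairing by number was seen. Of 84 same-numbered pairs, 32 correlated above 0.1, and their median was 0.0239 against -0.0105 for pairs of other numbers. Of 28 libraries, 9 correlated best with their own number. Such counts cannot exclude a pairing that holds for some groups only.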
